A study of Mus musculus with 3 samples.

Results

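The windows described here surround 11 genes for developmental transcription factors in mouse embryonic stem cells: Gata4, Gata6, Sox17, Foxa2, T, Eomes, Cdx2, Pax6, Nkx2-2, Olig2 and Lhx2. Members were the open-chromatin intervals of a FAIRE-seq list whose midpoint fell within a fixed mm9 window around each gene. The windows were 210 to 250 kb long, 2.47 Mb in all, and held 426 of the 348759 intervals of the list, or 0.122%. The 4 windows of the endoderm genes were chr14:63700001-63950000 (Gata4), chr18:10950001-11180000 (Gata6), chr1:4380001-4600000 (Sox17) and chr2:147770001-147980000 (Foxa2). Those of the mesoderm genes were chr17:8520001-8740000 (T) and chr9:118280001-118500000 (Eomes), and that of the trophectoderm gene was chr5:148010001-148220000 (Cdx2). Those of the neural genes were chr2:105400001-105640000 (Pax6), chr2:146900001-147110000 (Nkx2-2), chr16:91120001-91340000 (Olig2) and chr2:38100001-38340000 (Lhx2). The rule that assigns an interval to a window uses its position and not its score.

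FAIRE-seq sequences the DNA that stays in the aqueous phase when formaldehyde-fixed chromatin is extracted with phenol, which enriches nucleosome-depleted promoters and enhancers. The cells were wild-type stem cells of the 129Sv-C57Bl/6 strain background, grown without feeders. The series comprised 1 FAIRE sample treated with 500 nM ICRF-193, a catalytic inhibitor of topoisomerase II, for 16 h, 1 FAIRE sample given DMSO for 16 h, and 1 input sample of genomic DNA. Each FAIRE title names replicates 1 and 2 together. The list assigns no interval to a sample, so no value below describes an effect of ICRF-193. Its read depth is unknown, and its values carry no replicate error. The confidence intervals given below cover counting error only, and neighbouring intervals are not independent. Transcription was not measured in this list, so that whether the 11 genes were silent in these cells could not be checked.

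In embryonic stem cells, genes for lineage regulators are textbook examples of bivalent chromatin, in which the repressive Polycomb mark H3K27me3 and the activating mark H3K4me3 lie together over CpG-rich promoters. The genes are held at low transcription and are switched on in separate lineages as cells differentiate. Gata4 and Gata6 are zinc-finger factors of primitive endoderm and heart, Sox17 is an HMG-box factor of endoderm, and Foxa2 is a forkhead factor of endoderm, node and floor plate. T (brachyury) and Eomes are T-box factors of the primitive streak and mesoderm, and Eomes also acts in trophoblast. Cdx2 is the caudal homeobox factor of trophectoderm and the posterior body axis. Pax6 (eye, forebrain), Nkx2-2 (ventral neural tube, pancreas), Olig2 (motor neurons, oligodendrocytes) and Lhx2 (eye, cortex) are neural regulators.

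The promoters of these genes were richer in CpG than most. RefSeq promoters of build GRCm38.p6 were found for 8 of the 11 genes, 12 promoters in all. No entry was matched for Gata4, Gata6 and Sox17. In the 250 bases before the start, the ratio of observed to expected CpG had a median of 0.655 over the 8 genes, against 0.373 over the 32851 promoters of the table. It exceeded 0.6 in 9 of the 12 promoters, against 34.0% of all promoters. Pax6 reached the highest ratio at its second promoter, 1.06, and the third promoter of Foxa2 had the lowest, 0.376. Both promoters of Lhx2 were CpG-rich (0.895 and 0.882), as was that of Olig2 (0.821). Cdx2 had 0.69, Eomes 0.621, T 0.594 and Nkx2-2 0.539. The position of these promoters within the mm9 windows was not determined here, so no interval is assigned to a promoter.

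The letters of 4 promoters follow, from the 2 loci with the most intervals (Eomes, Cdx2) and 2 of the sparse neural loci (Nkx2-2, Olig2). Their ratios run from 0.539 (Nkx2-2) to 0.821 (Olig2), only part of the range over the 12 promoters. Each line gives the 250 bases before the start, 5′ to 3′ on the strand of the gene (plus for Eomes and Olig2, minus for Cdx2 and Nkx2-2), with each CG in capitals.
Eomes: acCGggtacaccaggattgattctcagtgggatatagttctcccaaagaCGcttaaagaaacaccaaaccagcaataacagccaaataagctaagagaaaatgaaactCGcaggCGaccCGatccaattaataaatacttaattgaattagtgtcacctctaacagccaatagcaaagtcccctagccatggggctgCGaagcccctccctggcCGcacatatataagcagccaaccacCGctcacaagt
Cdx2: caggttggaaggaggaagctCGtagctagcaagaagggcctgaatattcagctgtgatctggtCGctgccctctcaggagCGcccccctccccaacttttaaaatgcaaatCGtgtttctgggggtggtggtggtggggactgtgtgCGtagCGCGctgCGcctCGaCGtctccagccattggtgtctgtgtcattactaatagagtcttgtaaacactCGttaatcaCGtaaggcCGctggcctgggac
Nkx2-2: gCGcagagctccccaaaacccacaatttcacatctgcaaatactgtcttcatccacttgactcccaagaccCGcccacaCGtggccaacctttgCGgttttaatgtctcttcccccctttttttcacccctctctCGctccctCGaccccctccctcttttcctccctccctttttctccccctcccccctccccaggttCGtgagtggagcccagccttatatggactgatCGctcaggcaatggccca
Olig2: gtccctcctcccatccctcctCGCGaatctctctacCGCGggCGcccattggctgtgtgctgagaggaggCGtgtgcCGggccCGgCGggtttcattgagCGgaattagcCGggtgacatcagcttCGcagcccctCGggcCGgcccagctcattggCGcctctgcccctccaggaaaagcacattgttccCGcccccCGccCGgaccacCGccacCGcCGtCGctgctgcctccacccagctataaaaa
Olig2 held 22 CG, Cdx2 13, and Eomes and Nkx2-2 8 each, against a median of 6 over all promoters of the table. TATAAA, searched on both strands, was found in 2 of the 12 promoters (Olig2 and the first promoter of Foxa2) and in 12.4% of all promoters. CCAAT, searched in the same way, was found in 6 of the 12 and in 33.8% of all. The CpG count did not order the loci by their number of intervals, since Eomes and Nkx2-2 had the same count and lay near opposite ends of that order.

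**Figure D1:**
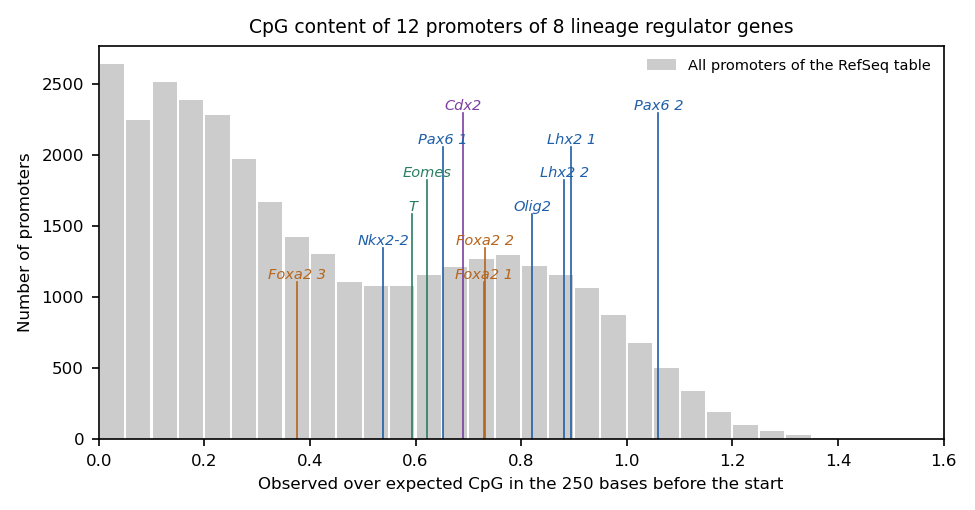
Ratio of observed to expected CpG in the 250 bases before the start (horizontal axis) for all 32851 promoters of the RefSeq table (grey bars, number of promoters) and for 12 promoters of 8 lineage regulator genes (vertical lines, coloured by lineage, with heights chosen for the labels only). Most of the 12 lie in the CpG-rich part of the distribution, and the third promoter of Foxa2 lies close to the median of 0.373.

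The 11 loci were not empty of open chromatin. Together they held 172 intervals per Mb (exact Poisson 95% interval 156 to 190). The median of the 10960 adjoining autosomal windows of 220 kb was 68.2 per Mb, so that the loci had 2.53 times the median window. Against the mean autosomal window of 143 per Mb, the like quantity for a pooled density, the ratio was 1.21. The distribution over autosomal windows is skewed, from 22.7 per Mb at its 25th percentile to 191 at its 75th and 386 at its 90th. Of the 11 windows 9 exceeded the median, which 49.0% of autosomal windows do. After intervals within 500 bp of each other were joined, the loci held 85.8 per Mb and the autosomes 65.7.

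The strength of the intervals, in contrast, lay close to that of the list. The score is the authors' value for each interval, and its scale is not stated in the sources used here. High-score intervals, the top 10% of the list (score of at least 0.0237), made up 37 of the 426 members, or 8.69% (exact binomial 95% interval 6.19 to 11.8%), against 10.0% of the list. Of the members, 78 were at least 200 bp wide (18.3%, 14.8 to 22.3%), against 20.1% of the list. The median score was 0.0135 in the loci and 0.0137 in the list, and the median width was 38 bp in the loci and 41 bp in the list. Intervals covered 1.81% of the bases of the loci and 1.64% of those of the autosomes. Of the members, 251 (58.9%) scored within 10% of the lowest score in the list, as did 58.3% of the list. These shares lie near their background and are no result about the loci.

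The loci differed widely among themselves, from 445 to 47.8 intervals per Mb (SD over the 11 loci 117). Eomes was the densest with 98 intervals, 445 per Mb (95% interval 362 to 543), more than 92.7% of autosomal windows. Cdx2 followed with 63 intervals, 300 per Mb (231 to 384), above 84.9% of windows. Gata4 had 57 intervals, 228 per Mb (173 to 295), and T had 39, 177 per Mb (126 to 242).
In the middle of the order, Pax6 and Lhx2 had 38 intervals each, 158 per Mb (112 to 217), and Sox17 had 29, 132 per Mb (88.3 to 189). Olig2 had 20 intervals, 90.9 per Mb (55.5 to 140), and Foxa2 had 19, 90.5 per Mb (54.5 to 141). Nkx2-2 had 14, 66.7 per Mb (36.4 to 112), just under the median autosomal window. Gata6 was the sparsest with 11, 47.8 per Mb (23.9 to 85.6), and exceeded 42.3% of autosomal windows. The counting intervals of neighbours in this order overlapped at each step, and differences between neighbours were not tested. Without Eomes, the other 10 loci held 146 intervals per Mb and covered 1.55% of their bases, against an autosomal mean of 143 per Mb and 1.64%, so that no excess over that mean remained beyond counting error (130 to 162).

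**Figure D2:**
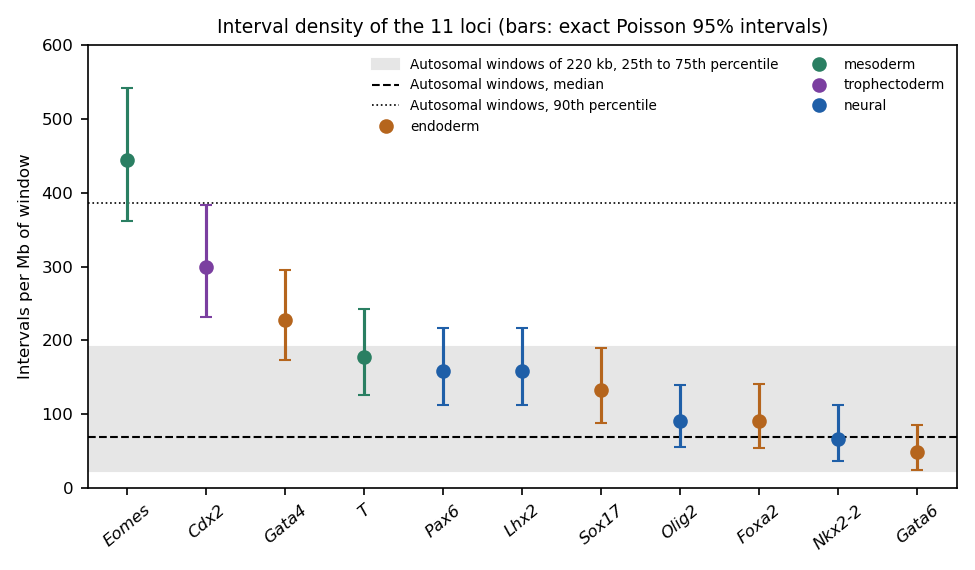
Intervals per Mb of window (vertical axis) for each of the 11 loci, ordered by density and coloured by lineage, with exact Poisson 95% intervals as bars. The grey band, dashed line and dotted line give the 25th to 75th percentile, the median (68.2) and the 90th percentile (386) of autosomal windows of 220 kb, and only Eomes lies above the dotted line.

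By lineage, the mesoderm loci (T, Eomes) held 311 intervals per Mb (261 to 368) and Cdx2 300, against 127 (105 to 153) in the 4 endoderm loci and 121 (99.3 to 146) in the 4 neural loci. Within the mesoderm loci Eomes had 445 and T 177 per Mb, so the place of the mesoderm loci above Cdx2 depends on Eomes. T alone lay above the endoderm and neural loci, but its counting interval (126 to 242) overlapped theirs. Of the 116 endoderm intervals, 57 were in the Gata4 window. The share of high-score intervals was 13.6% (15 of 110) in the neural loci, 8.03% (11 of 137) in the mesoderm loci, 7.94% (5 of 63) at Cdx2 and 5.17% (6 of 116) in the endoderm loci. The exact 95% intervals of all 4 shares, from 7.84 to 21.5% for the neural and 1.92 to 10.9% for the endoderm loci, include the 10.0% of the list.

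Each gene has other genes nearby, and an interval in a window need not belong to the gene the window is named for. In the RefSeq order of protein-coding genes (GRCm38.p6), Cdx2 lies between Pdx1 and Urad, T between T2 and Pde10a, Nkx2-2 between Nkx2-4 and Pax1, and Olig2 beside Olig1. Eomes is followed by Golga4, Gata4 is preceded by Neil2, and Pax6 is followed by Elp4. Which of these lie inside the mm9 windows was not determined here.

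The 1 Mb on either side of a locus held between 73.5 (Foxa2) and 273 (Olig2) intervals per Mb, a narrower range than that of the loci. Eomes, T and Gata4 stood above the 1 Mb on either side, with 4.03, 2.32 and 1.71 times the density there (445 against 110, 177 against 76.5, and 228 against 133 intervals per Mb). Foxa2 and Cdx2 had 1.23 and 1.22 times the density of their surroundings. Sox17 (0.966 times), Lhx2 (0.865) and Pax6 (0.842) were close to theirs. Gata6 (0.52), Nkx2-2 (0.474) and Olig2 (0.333) lay below, and the Olig2 window had 90.9 intervals per Mb within surroundings of 273. The Foxa2 and Nkx2-2 windows lie within 1 Mb of each other on chromosome 2, so each is part of the other's surroundings. Relative to windows of its own chromosome, each locus except Nkx2-2 exceeded the median.

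Intervals, high-score ones included, were denser in the middle of the windows. A central stretch was defined as what remains after 100 kb is taken from each end. It measured 10 to 50 kb per locus and 0.27 Mb in all, 10.9% of the length. Whether it coincides with the gene each window is named for was not determined here. The central stretches held 13 high-score intervals, 48.1 per Mb, and the flanks 24, or 10.9 per Mb. The ratio was 4.41 (exact 95% interval 2.06 to 9.02, counting error only). All intervals together had 374 per Mb in the central stretches and 148 in the flanks, a ratio of 2.53 (2.01 to 3.17), and intervals joined within 500 bp a ratio of 2.01 (1.4 to 2.84). High-score intervals made up 12.9% of the central intervals (13 of 101) and 7.38% of those in the flanks (24 of 325). The interval of the high-score ratio includes 2.53, so that a stronger concentration of high-score intervals is not shown. Central stretches were denser than their flanks at 9 of the 11 loci. The exceptions were Gata4 (100 per Mb in the centre, 260 in the flanks) and T (50 and 190). Both nevertheless had high-score intervals in the centre, 3 at Gata4 and 1 at T.

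High-score intervals occurred in the central stretch of 7 loci (Gata4, T, Eomes, Cdx2, Pax6, Nkx2-2 and Lhx2). Eomes and Gata4 had 3 each, Pax6 and Nkx2-2 had 2 each, and T, Cdx2 and Lhx2 had 1 each. Sox17 and Olig2 had none there, among only 9 and 3 central intervals, and their flanks held 2 and 5. With so few central intervals and a list share of 10.0%, this absence is no result about the 2 loci. Gata6 and Foxa2 had no high-score interval in the whole window, which was also the case for 33.2% of autosomal windows of 220 kb. Of all 426 intervals, 164 lay within 30 kb of the centre of a window, in 0.66 of the 2.47 Mb. By distance, 22 of the 37 high-score intervals lay within 30 kb of the centre of a window, 2 between 30 and 60 kb, and 13 beyond 60 kb. Of these last, 5 lay 60 to 70 kb to the left of the centre, at 3 loci. Whether windows centred on other genes show the same excess was not measured here, since an mm9 annotation was not used.

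**Figure D3:**
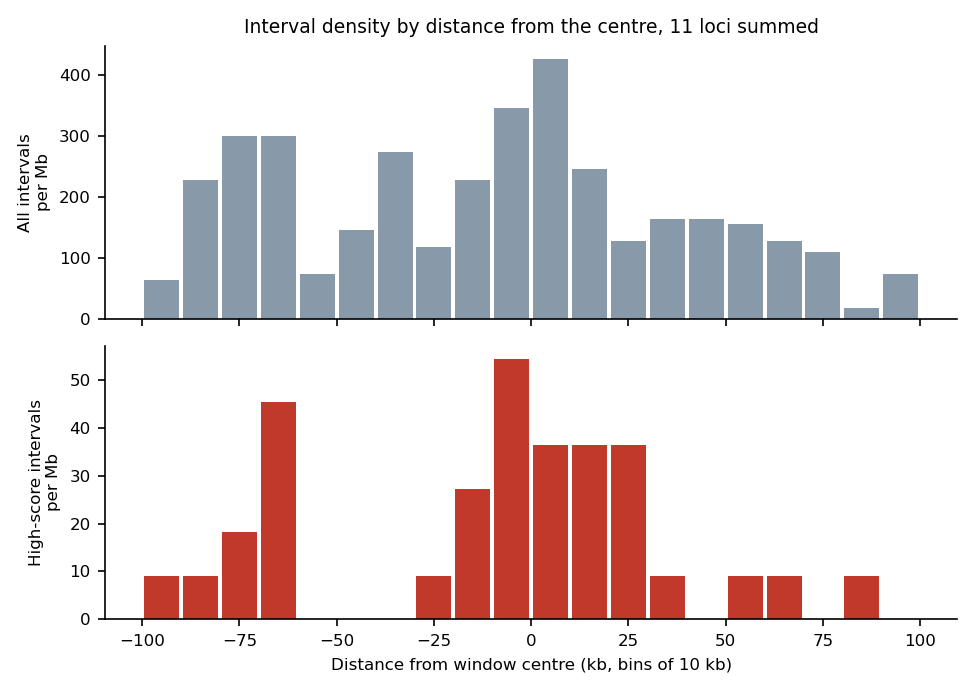
Intervals per Mb, summed over the 11 loci, in bins of 10 kb by distance of the midpoint from the window centre (horizontal axis, kb; mm9 plus strand to the right), for all intervals (top) and high-score intervals (bottom). Bars start at 0 and have no error bars. High-score intervals peak at 54.5 per Mb in the bin just left of the centre, and a separate bar of 45.5 per Mb stands 60 to 70 kb to the left.

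The strongest interval of a locus lay within 20 kb of the centre at 4 of the 11 loci and in the central stretch at 2, Pax6 and Nkx2-2. Of all 426 intervals, 101 were central and 164 lay within 30 kb of a centre. With 11 loci, these counts are no result about where the strongest intervals lie. The highest score of a locus ranged from 0.0152 at Gata6 to 0.0662 at Eomes, with a median of 0.0395 over the loci. The widest interval of the locus was a high-score interval at 6 of the 11. How often this holds in other windows was not measured, so this count is no result about the loci. The positions below are those of the list, counted from 1.

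**Figure D4:**
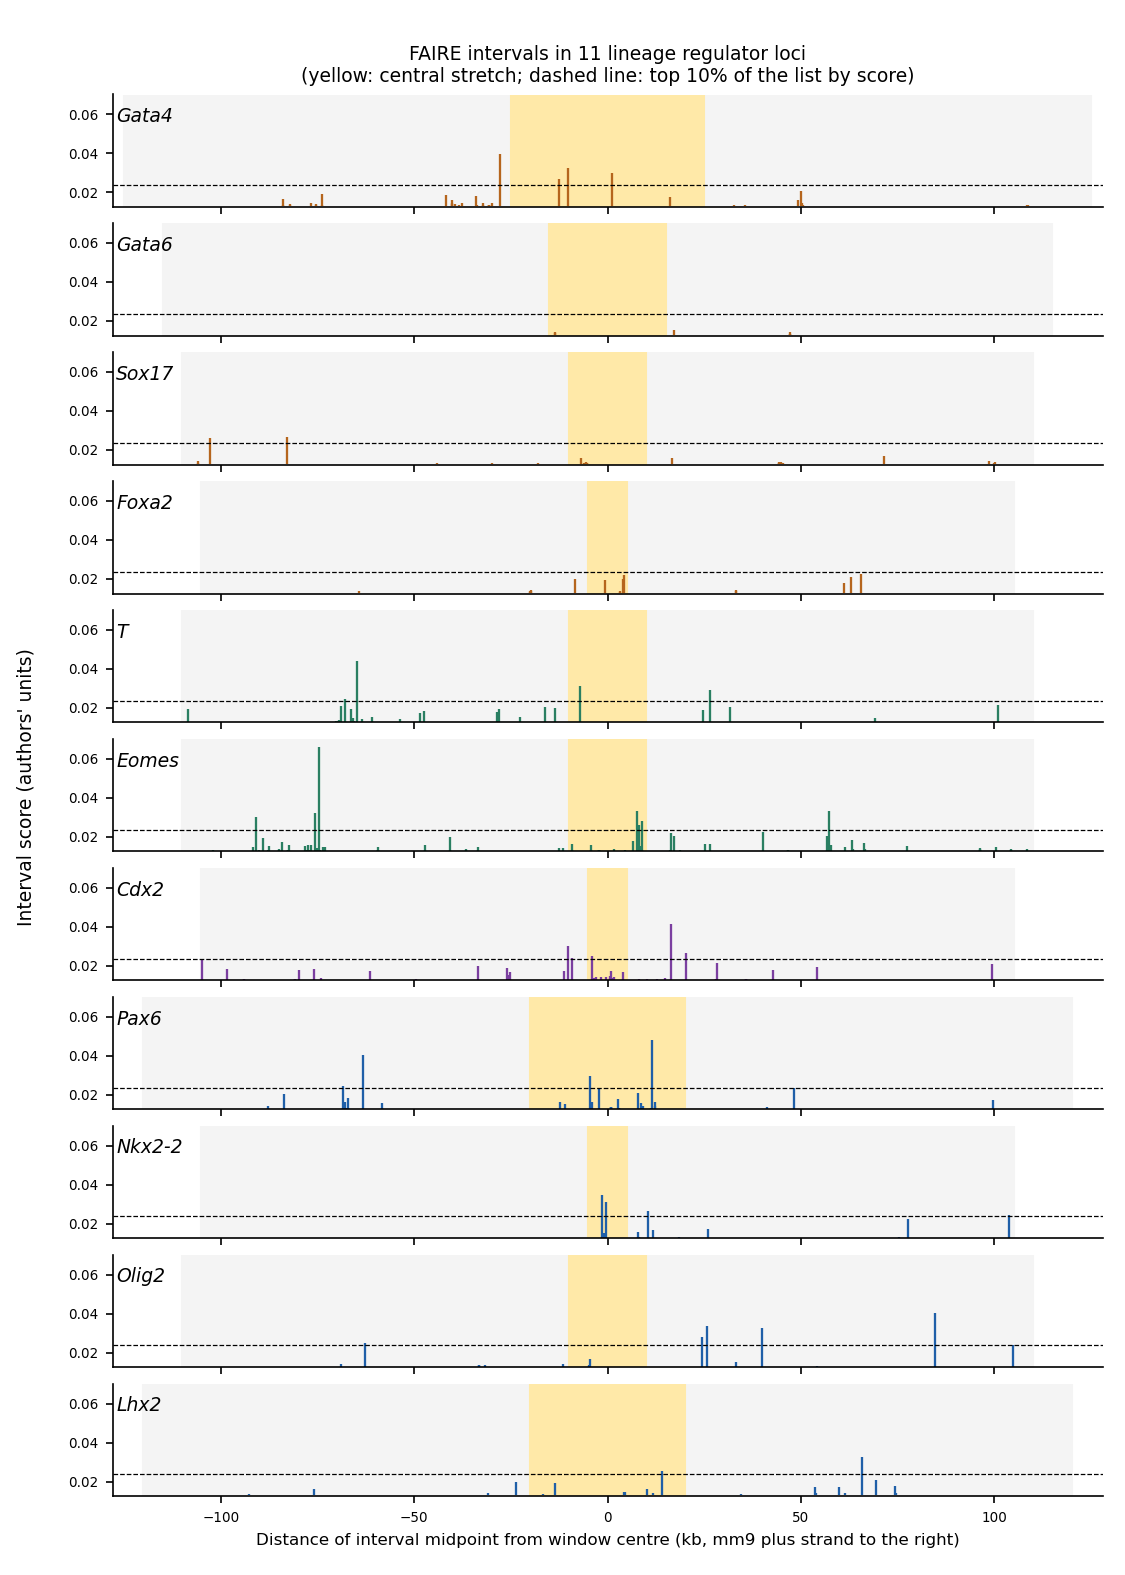
Score of each interval (vertical lines, authors' units, from the lowest score of the list upwards) against the distance of its midpoint from the window centre (kb) at the 11 loci, coloured by lineage. Grey marks the window, yellow the central stretch, and the dashed line the score of 0.0237 above which the top 10% of the list lie. Eomes reaches the highest score, 0.0662, far to the left of its centre, while the Gata6 window holds no line above 0.0152.

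Among the endoderm genes, Gata4 had the strongest site. Its highest-scoring and widest interval, chr14:63796614-63797545 (932 bp), scored 0.0395, 2.89 times the median of the list, with 1.88% of the list higher. Next was chr14:63814615-63814918 (304 bp, score 0.0323), and a further high-score interval of 692 bp lay at chr14:63812160-63812851 (0.0266). As in the list, most Gata4 intervals were not of this kind, with 4 of the 57 high-score (7.02%, 1.95 to 17%, against 10.0%). The densest 10 kb, chr14:63784627-63794423, held 22 of the 57 (38.6%) and no high-score interval. That stretch also held none at Gata6, Sox17, Foxa2 and Olig2, and 1 or 2 at the other loci. Of the 57 Gata4 intervals, 24 (42.1%) were no wider than 10 bp, against 30.9% on the autosomes. This share ranged from 7.14% at Nkx2-2 (1 of 14) to 54.5% at Gata6 (6 of 11) over the loci. The counting error of these shares was not computed, so no difference from the autosomes is shown.

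Sox17 had 2 high-score intervals, both far to the left of the centre, at chr1:4406811-4407132 (322 bp, the widest, score 0.0265) and chr1:4387015-4387229 (215 bp, 0.0261). The central stretch of Sox17 held 9 intervals, all within chr1:4483019-4484796. The strongest of them, at chr1:4483019-4483171, scored 0.0161, and 8 of the 9 lay so close together that they joined into a stretch of 993 bp.
Foxa2 had no high-score interval among 19, and the exact 95% interval of this share reaches 17.6%, which includes the 10.0% of the list. The highest score at Foxa2 was 0.0224, at chr2:147940414-147940633 (220 bp), followed by 0.0219 at chr2:147879108-147879453 (346 bp, the widest). The second belongs to a stretch of 6 intervals, chr2:147878292-147879491, 1200 bp long and 3.9 kb from the centre. At Foxa2, 6 of the 19 intervals were 200 bp or wider (31.6%, 12.6 to 56.6%), against 20.1% of the list.

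Gata6 had the fewest intervals, the lowest coverage and the lowest top score of the 11 loci. None of its 11 intervals reached 200 bp or the top 10% by score. For each of these shares the exact 95% interval reaches 28.5%, which includes the 20.1% and 10.0% of the list. The strongest and widest, chr18:11082073-11082208 (136 bp), scored 0.0152, 1.12 times the median of the list, and 31.3% of the list scored higher. The second, chr18:11112234-11112355 (122 bp), scored 0.0146. Intervals covered 0.193% of the Gata6 window, against 1.87% at Gata4. The list gives intervals above a threshold only, so weaker signal at Gata6 is not described by it.

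Among the mesoderm genes, the strongest site of the 11 loci lay in the Eomes window. The interval chr9:118315122-118315655 (534 bp) scored 0.0662, 4.85 times the median of the list, with 0.212% of the list higher, and lay 74.6 kb left of the centre. With a neighbour of 529 bp at chr9:118313997-118314525 (score 0.0322) and 4 more intervals it formed a stretch of 1664 bp. The second highest, chr9:118397390-118397700 (311 bp, 0.033), lay 7.5 kb right of the centre, in a stretch of 6 intervals and 1735 bp that ended at 118399124. The widest, chr9:118298580-118299454 (875 bp), scored 0.0304. The Eomes window therefore had high-score sites both near its centre and far from it, 3 in the central stretch and 4 in the flanks.

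T held the widest interval of the 11 loci, chr17:8564624-8565960 (1337 bp). It was also the strongest at T, with a score of 0.0442 and 1.16% of the list higher, and lay 64.7 kb left of the centre. The 10 kb around it, chr17:8559915-8569153, held 19 of the 39 intervals of T (48.7%). The second highest, chr17:8622788-8623189 (402 bp, 0.0313), lay 7 kb left of the centre and was the only interval in the central stretch.

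At Cdx2, high-score intervals lay on both sides of the centre. The strongest, chr5:148131259-148131600 (342 bp), scored 0.0412, with 1.57% of the list higher, 16.4 kb right of the centre. The second, chr5:148104787-148105070 (284 bp), scored 0.0303, 10.1 kb to the left. The widest, chr5:148088730-148089265 (536 bp), scored 0.0188 and was not in the top 10%. The central 10 kb of Cdx2 held 20 intervals, of which 1, chr5:148110750-148111005 (0.0252), was high-score. This was the densest central stretch of the 11 loci, at 2000 intervals per Mb. That density counts pieces singly. Joined within 500 bp, 12 of the 20 intervals formed 1 stretch and 5 another, chr5:148110750-148111984.

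Among the neural genes, Pax6 had the strongest site. The interval chr2:105531358-105531877 (520 bp) scored 0.0482, 3.53 times the median of the list, with 0.787% of the list higher, and lay in the central stretch. The second, chr2:105456371-105456935 (565 bp), scored 0.0406, 63.3 kb left of the centre. The widest, chr2:105517258-105518259 (1002 bp), scored 0.0236, just short of the top 10%. Of the 38 Pax6 intervals, 20 were central.

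Nkx2-2 had few intervals. Of its 14 intervals 4 were high-score (28.6%), and the exact 95% interval of 8.39 to 58.1% includes the 10.0% of the list. Its 2 strongest lay 817 bp apart next to the centre, chr2:147003407-147003750 (344 bp, score 0.0347) and chr2:147004568-147004918 (351 bp, the widest, 0.031). No interval lay in the left 103 kb of the window, from 146900001 to 147003406. The 10th percentile of autosomal windows of 220 kb was 4.55 intervals per Mb, so empty stretches of this length also occur elsewhere. How often they occur was not counted. At the other 10 loci the longest stretch with no interval was between 20.8 and 67.6 kb, and the 2 strongest intervals lay 17.1 to 81.7 kb apart.

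Olig2 had 5 high-score intervals of 20 (25%, 8.66 to 49.1%, which also includes 10.0%), and none was central. The strongest, chr16:91314349-91314753 (405 bp), scored 0.0402, 84.6 kb right of the centre. The second and widest, chr16:91255366-91255906 (541 bp), scored 0.0336, and 4 of the 5 lay to the right of the central stretch. In that stretch 3 intervals joined into 616 bp at chr16:91225071-91225686, with a highest score of 0.017.
Lhx2 had as many intervals as Pax6, with 2 high-score ones, against 4 at Pax6. The exact 95% intervals of these shares overlap, 0.644 to 17.7% at Lhx2 and 2.94 to 24.8% at Pax6. Both include the 10.0% of the list, so the counts show no difference between the 2 loci. The strongest at Lhx2, chr2:38285518-38285800 (283 bp), scored 0.0328, 65.7 kb right of the centre, and the second, chr2:38233911-38234187 (277 bp, 0.0254), was central. The widest, chr2:38206334-38206646 (313 bp), scored 0.0191.

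The edges of the windows were set by rule. In the 10 kb inside the 22 edges there were 20 intervals, 2 of them high-score, and in the 10 kb outside there were 29, of which 2 were high-score.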

How the data were processed

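The labels describe FAIRE-seq of mouse embryonic stem cells. Per the submitters' processing notes, reads were aligned with Bowtie to mm9. The name of the deposited list names F-Seq, a program that lists stretches where smoothed read density exceeds a threshold. Neither its settings, nor the read filters, nor which samples it was run on is stated in the labels. The deposited list holds the start, end and score of each interval, and the score is the authors' value on an unstated scale.

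Members were assigned by midpoint, and starts were converted to count from 1. Counts, widths, scores and covered bases were computed in Python 3.11.15 with scipy 1.17.1, numpy 2.4.6 and pandas 2.3.3, and plotted with matplotlib 3.10.9. The background was 10960 adjoining windows of 220 kb on the 19 autosomes. Intervals at 95% are exact Poisson or Clopper-Pearson. No test was run, since there is 1 pooled list. Window counts and ratios were checked on simulated data. CpG was counted in RefSeq promoters (GRCm38.p6), and no coordinates were taken from that build. The text names all 11 loci and, in each, the 2 highest-scoring intervals and the widest. Further intervals, neighbouring genes and the promoters printed were picked after their values were seen. The members and lists were chosen with earlier results of these data known. Alternatives were score and width filters, joining within 500 bp, other window edges and backgrounds, and leaving out each locus.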

Additional observations from a re-analysis of the deposited data

How the results depend on the processing

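The density of the loci was 2.53 times the median autosomal window, a ratio that exceeds 1 for the mean autosomal window too, as the windows are skewed. It was 2.26 for intervals at or above the median score, 3.3 for the top 10% by score and 2.1 after joining within 500 bp. The 3.3 holds against the median window only. High-score intervals numbered 15 per Mb in the loci and 14.2 per Mb over the autosomes, so no excess of strong intervals is shown. For all intervals, the ratio was 2.83 with windows 20 kb narrower at each end. It was 2.87 and 2.16 against background windows of 100 and 500 kb, and 2.23 with empty background windows left out. Against the mean of the autosomal windows, which was added after seeing the data, it was 1.21, and 6 of the 11 loci exceeded that mean, against 9 above the median. Leaving out 1 locus at a time gave 2.14 (without Eomes, 146 intervals per Mb against a mean of 143) to 2.72. The cause of these shifts was not tested. The central ratio of high-score intervals (4.41) ranged from 3.43 to 4.81 over the alternatives that kept all loci and high-score intervals, from 3.85 to 5.47 with 1 locus left out, and was 3.81 without Pax6 and Eomes, a choice made after seeing the data. Of 120 alternative values for 7 results, 111 lay within the spread of the reported value and 9 moved. The spread was counting error or, for coverage, the number of loci above the median and CpG, a factor of 1.5. By that factor, 6 loci against 9 counted as within the spread. The central ratio was 2.81 for intervals at or above the median score and 2.53 for all intervals. The covered share of the loci, 1.11 times that of the autosomes, turned below it, to 0.93 times for the top 10% by score and 0.946 times without Eomes, and stayed above it in the other alternatives. No paired analysis was possible because intervals carry no sample name, and ICRF-193 was not compared with DMSO for the same reason. As depth is unknown, absence of an interval does not show closed chromatin.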
